A study of Mus musculus with 18 samples.

Results

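The 10 genes described here are the immunoglobulin constant region genes Ighm, Ighd, Ighg3, Ighg1, Ighg2b, Ighg2c, Ighe, Igha and Igkc and the J chain gene Jchain, chosen by gene name out of 55385 genes in the deposited tables. All 10 passed the filter on low counts. Poly(A) RNA was sequenced from spleens of adult mice in 18 libraries, 6 per genotype with 3 males and 3 females each. Dp16_2xIFNRs mice carry the Dp16 duplication with the dosage of the interferon receptor genes brought back to normal. Dp16 mice carry a duplication of a stretch of chromosome 16 that is related to human chromosome 21. WT mice are C57BL/6J, the strain that the labels name for this group only. No treatment is given, and the labels give ages of 17.1 to 18 in days post conception, a unit that is unclear for adult mice, so that ages are not used here. None of the 10 genes lies on chromosome 16.

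An antibody is built from heavy chains and light chains, and the constant region of the heavy chain sets its class. Naive B cells make Ighm and Ighd from 1 long transcript by alternative splicing and polyadenylation. Activated cells cut out the DNA between Ighm and a constant gene farther along the locus and so switch to IgG, IgE or IgA, and plasma cells then secrete the product in large amounts. J chain joins the secreted forms of IgM and IgA into polymers. In the spleen, these RNAs come from the many resting B cells of the white pulp and from far fewer plasma cells, each of which holds much more of them.

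The 8 heavy chain genes lie in 1 row on chromosome 12 of GRCm38, all on the minus strand, so that the order in which they are read runs toward lower coordinates. Ighm comes first at chr12:113418558-113422730, followed by Ighd (chr12:113406604-113416324), Ighg3 (chr12:113356224-113361232), Ighg1 (chr12:113325240-113330523), Ighg2b (chr12:113302965-113307933), Ighg2c (chr12:113285325-113288932), Ighe (chr12:113269260-113273248) and Igha (chr12:113254830-113260236). The kappa light chain gene Igkc lies at chr6:70726435-70726966 on the plus strand and Jchain at chr5:88519809-88527891 on the minus strand. Positions are those of GENCODE vM21.

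The hinge exons of the 4 gamma genes are shown because the hinge is the stretch in which these closely related genes differ most plainly, and because the 4 genes are reported one by one below. Capitals mark in-frame cysteine codons, since cysteines of the hinge can form bonds between the chains of an antibody. Each is coding exon 2 of its gene, printed 5′ to 3′ on the coding strand.
Ighg3 hinge (chr12:113360529-113360576): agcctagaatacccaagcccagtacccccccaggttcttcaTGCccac
Ighg1 hinge (chr12:113329844-113329882): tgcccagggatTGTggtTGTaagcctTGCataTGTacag
Ighg2b hinge (chr12:113307261-113307326): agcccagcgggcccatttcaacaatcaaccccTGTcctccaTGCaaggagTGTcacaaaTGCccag
Ighg2c hinge (chr12:113288263-113288325): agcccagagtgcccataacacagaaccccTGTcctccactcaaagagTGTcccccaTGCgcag
The hinges are 48, 39, 66 and 63 bases long in that order and hold 1, 4, 4 and 3 cysteine codons.

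Outside the hinge, the gamma genes are alike enough to raise the question of which gene a read belongs to. Ighg2b and Ighg2c are identical at 94.2% of the 330 aligned bases of the CH2 domain, the closest of the pairs, and at 76.2% of those of the CH3 domain. The longest run of identical bases shared by any pair of the 10 genes was 88 bases, between Ighg2b and Ighg3. No window of 150 bases, the length of 1 read, occurred in more than 1 of the 10 genes. Shorter runs within a read can still fit more than 1 gamma gene, so that levels of single gamma genes carry this uncertainty.

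The ends of the secreted mu and alpha chains are shown because they are where J chain attaches. Each is the last 54 coding bases before the stop codon, and the capitals mark the cysteine codon that stands next to last and takes part in the bond with J chain.
Ighm secreted end (chr12:113420870-113420923): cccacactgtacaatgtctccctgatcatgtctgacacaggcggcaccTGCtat
Igha secreted end (chr12:113258771-113258824): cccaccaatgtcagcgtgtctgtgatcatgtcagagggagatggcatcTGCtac
Both stretches hold 1 cysteine codon, at the same place. The files count reads per gene, so that secreted and membrane forms were not separated.

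Libraries held 33998427 to 53021480 counts. Levels are given in CPM, the count scaled to the library total as counts per 1e6 counts. No molecular identifiers were used, so the intervals given below for shares of single libraries cover counting error only. All 10 erythroid and all 10 neutrophil markers were higher than in WT in both other genotypes. Summed erythroid markers ran from 19216 to 39267 CPM in Dp16_2xIFNRs, 20149 to 36311 CPM in Dp16 and 5797 to 19239 CPM in WT. Summed neutrophil markers ran from 3650.49 to 6037 CPM in Dp16_2xIFNRs, 3109 to 10740.4 CPM in Dp16 and 472 to 2093 CPM in WT. None of 10 T cell markers was called. Of all genes tested, 17.3% were called higher and 14.2% lower in Dp16_2xIFNRs vs WT, and 16.6% and 13.2% in Dp16 vs WT. B cell, T cell, erythroid, neutrophil and red pulp macrophage markers were all above 0 in every library. Their part in the results on the 10 genes was not tested. CPM is a share of the library, and in a whole spleen fewer cells of a type and less RNA per cell cannot be told apart.

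Single libraries stood apart from the other 5 of their genotype in some of the 10 genes. Dp16_2xIFNRs replicate 6 held far more Ighg1 and Ighe, WT replicate 2 far more Ighg3, and Dp16_2xIFNRs replicate 1 less Ighg2b. Results that rest on them are given with and without them.

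The 10 genes together took 4.55% ± 0.83 of all counts in Dp16_2xIFNRs, 4.01% ± 0.55 in Dp16 and 3.34% ± 1.29 in WT (SD, n = 6 each). On the scale of the deposited RPKM, which divides counts by gene length as well as library total and so allows genes to be compared, Igkc was the highest of the 10 in every genotype, with a mean of 34707 RPKM in Dp16_2xIFNRs, 30412 RPKM in Dp16 and 22828 RPKM in WT. Ighm was next, at 7276 RPKM in Dp16_2xIFNRs, 6806 RPKM in Dp16 and 7373 RPKM in WT. Its libraries lay below all Igkc libraries in Dp16_2xIFNRs and Dp16, whereas in WT the highest Ighm library (15222 RPKM) overlapped the lowest Igkc library (14146 RPKM).

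Below Ighm, several neighbours in the order could not be separated. Igha held rank 3 in all 3 genotypes, with 2161 ± 576 RPKM in Dp16_2xIFNRs, 1738 ± 651 RPKM in Dp16 and 1184 ± 459 RPKM in WT (SD, n = 6 each), and its range overlapped that of the gene next in order in each. Ighg2c, Jchain and Ighg2b followed in both duplication genotypes, and Jchain, Ighg2c and Ighg2b in WT. Ighd held rank 9 in Dp16_2xIFNRs with 248 RPKM, rank 8 in Dp16 with 235 RPKM and rank 7 in WT with 455 RPKM. By its mean Ighe was last in every genotype, at 5.50 RPKM in Dp16_2xIFNRs, 1.45 RPKM in Dp16 and 0.790 RPKM in WT. No Ighe library reached the level of any library of the gene next above it in this order. In Dp16_2xIFNRs replicate 6, Ighe at 28.7 RPKM lay above Ighg3 at 23.2 RPKM.

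**Figure D1:**
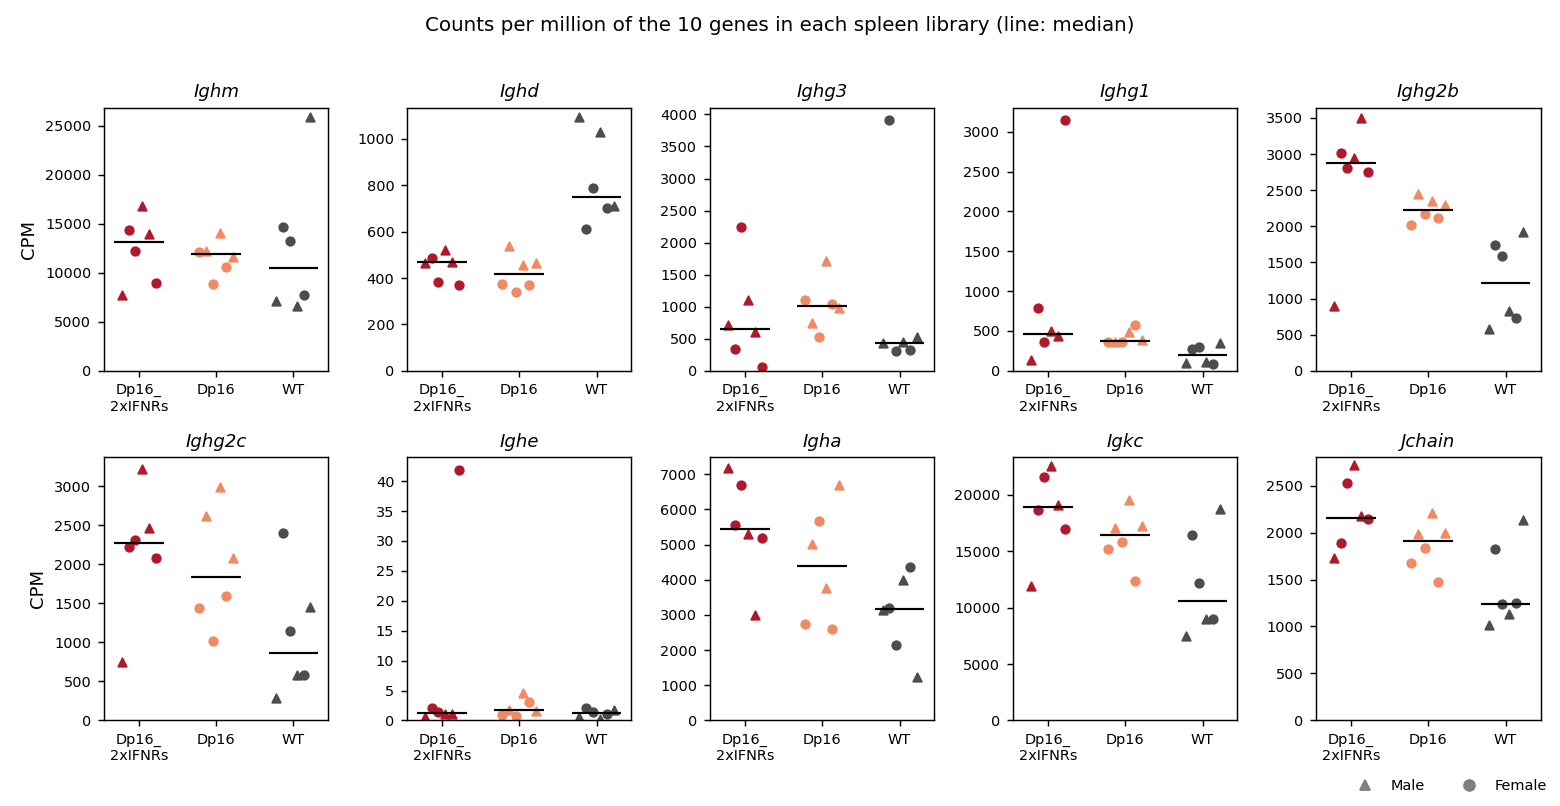
Level in CPM (y axis from 0, a separate scale for each gene) of the 10 genes in each library, with Dp16_2xIFNRs, Dp16 and WT from left to right, triangles for males, circles for females and a line at the median of 6 libraries. Ighd is the gene in which all WT libraries lie above both other genotypes, and single points far above the rest are seen for Ighg3 in WT and for Ighg1 and Ighe in Dp16_2xIFNRs.

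The test asks whether each gene differed between genotypes beyond the spread of the 6 spleens. In Dp16_2xIFNRs against WT, 6 of the 10 genes were called at an adjusted p below 0.05. Ighg1, Ighg2b, Igha, Igkc and Jchain were higher and Ighd was lower. Of all 18634 genes tested in that comparison, 17.3% were called higher and 14.2% lower. In Dp16 against WT, 3 of the 10 were called, with Ighg2b and Jchain higher and Ighd lower, against 16.6% called higher and 13.2% lower over all genes. In Dp16_2xIFNRs against Dp16, none of the 10 was called, and each had an adjusted p of 1 by edgeR and an unadjusted p of 0.179 or above. In that comparison 0% of all genes were called higher and 0.0215% lower. Both comparisons with WT share the same 6 WT libraries, so their agreement is not a repeat of the result.

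**Figure D2:**
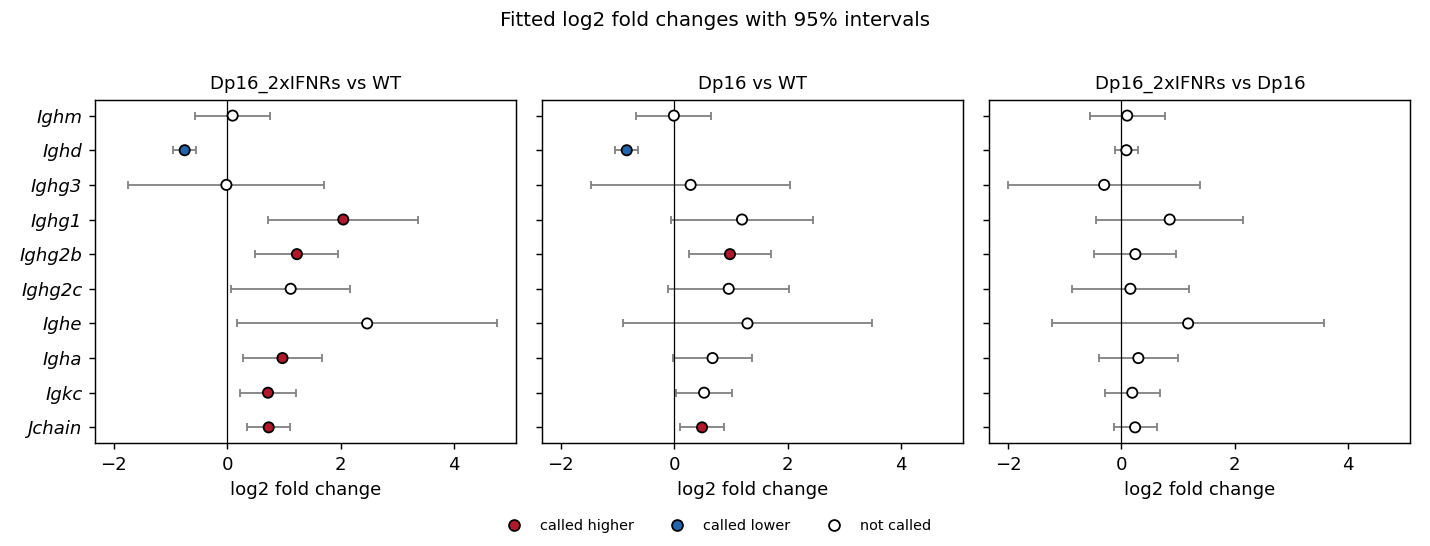
Fitted log2 fold change of each gene (x axis) with its 95% interval from the edgeR fit, in Dp16_2xIFNRs vs WT (left), Dp16 vs WT (middle) and Dp16_2xIFNRs vs Dp16 (right); filled points are called at an adjusted p below 0.05. Ighd is the only gene of the 10 called lower, its intervals are the shortest, and all 10 intervals of the right panel include 0.

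Ighd, which encodes the delta chain of the IgD receptor on mature naive B cells, was the gene of the 10 with the clearest difference. It ran from 369.7 CPM through a median of 467 CPM to 519 CPM in Dp16_2xIFNRs, from 341 through 416 to 537 CPM in Dp16, and from 609 through 748 to 1095 CPM in WT. The WT libraries did not overlap with those of either other genotype. Its log2 fold change was -0.75 ± 0.10 (SE) in Dp16_2xIFNRs vs WT, a fold of 0.595 (edgeR adjusted p = 2.0e-05), and -0.84 ± 0.10 in Dp16 vs WT, a fold of 0.559 (adjusted p = 5.43e-06). Between Dp16_2xIFNRs and Dp16 the difference was 0.09 with a 95% interval of -0.11 to 0.29. The call against WT held in every alternative run and without any 1 of the 18 libraries.

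Markers of B cells moved with Ighd. Of a list of 16 markers, 14 were lower in Dp16_2xIFNRs than in WT, with a median log2 fold change over the list of -0.58, and 14 were lower in Dp16 than in WT, with a median of -0.63. The median over all genes was -0.01 in both comparisons. Called lower were 14.2% of all genes in Dp16_2xIFNRs vs WT and 13.2% in Dp16 vs WT. The markers summed to 3658 to 4742 CPM in Dp16_2xIFNRs, 3533 to 4380.2 CPM in Dp16 and 5176 to 7832 CPM in WT, without overlap between WT and the others. Cr2, the complement receptor of mature B cells, changed by -0.82 ± 0.10 in Dp16_2xIFNRs vs WT (adjusted p = 7.95e-06) and -0.77 ± 0.10 in Dp16 vs WT (adjusted p = 1.57e-05). Ms4a1, which encodes the B cell surface protein CD20, changed by -0.48 ± 0.08 (adjusted p = 0.000175) and -0.60 ± 0.08 (adjusted p = 3.1e-05) in the same 2 comparisons.

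Set against these markers, most of the distance in Ighd was gone. Ighd CPM amounted to 10.9% ± 0.8 of the summed marker CPM in Dp16_2xIFNRs, 10.7% ± 1.2 in Dp16 and 12.6% ± 1.2 in WT (SD, n = 6 each). The ranges were 10.1% to 11.9% in Dp16_2xIFNRs, 9.55% to 12.3% in Dp16 and 11.7% to 14.3% in WT, so that the genotypes overlapped on this scale. No test was run on this ratio.

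Ighm, which encodes the mu chain of IgM, is made both by resting B cells and, as secreted IgM, by plasma cells. It ran from 7767 through 13118 to 16811 CPM in Dp16_2xIFNRs, from 8805 through 11860.3 to 14029 CPM in Dp16 and from 6579 through 10445 to 25846 CPM in WT. The WT libraries spanned both other genotypes, with WT replicate 6 above every other library and WT replicates 1, 4 and 5 at the low end of the series. The log2 fold change was 0.10 with a 95% interval of -0.57 to 0.76 in Dp16_2xIFNRs vs WT (edgeR adjusted p = 0.859) and -0.01 with an interval of -0.67 to 0.66 in Dp16 vs WT (adjusted p = 0.990).

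The ratio of Ighd to Ighm counts was lower on average in both duplication genotypes, a difference that did not pass the test. Ighd counts amounted to 3.84% ± 1.11 of Ighm counts in Dp16_2xIFNRs, 3.69% ± 0.49 in Dp16 and 8.83% ± 5.59 in WT (SD, n = 6 each). The WT libraries ran from 2.75% in replicate 6 to 15.6% in replicate 4 and overlapped with both other genotypes. The difference in the mean log2 ratio was -0.97 in Dp16_2xIFNRs vs WT (exact permutation, adjusted p = 0.159) and -0.99 in Dp16 vs WT (exact permutation, adjusted p = 0.156). Ighm CPM amounted to 298% ± 63.3 of the summed B cell marker CPM in Dp16_2xIFNRs, 292% ± 31.9 in Dp16 and 205% ± 135 in WT, where single libraries ran from 90.8% to 437%.

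**Figure D3:**
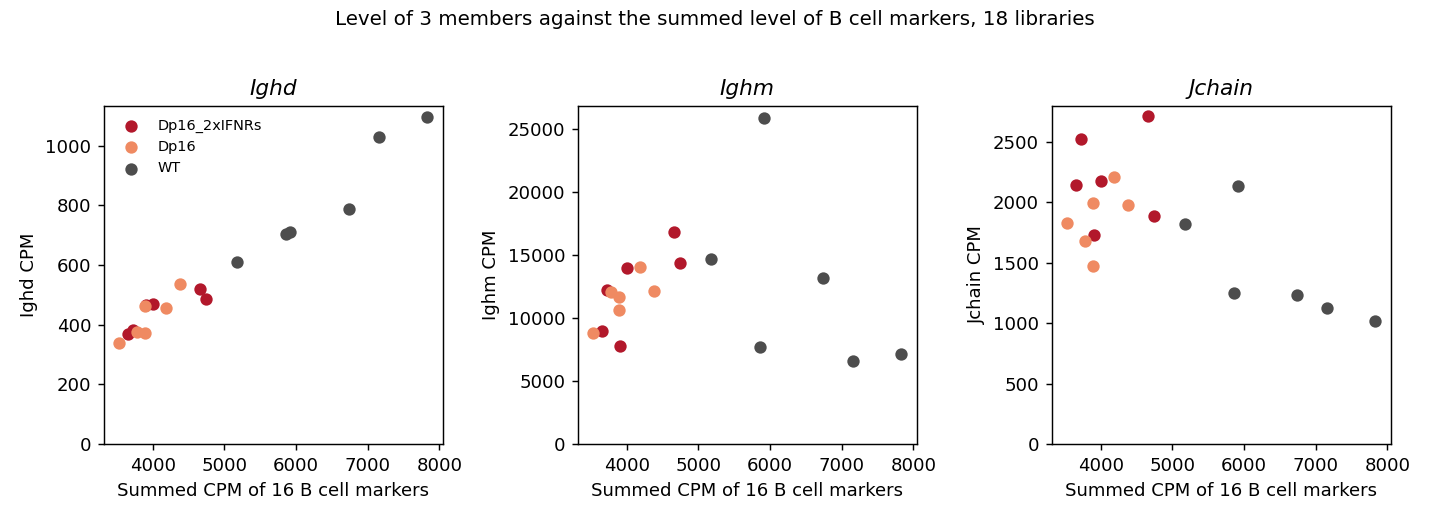
CPM of Ighd, Ighm and Jchain (y axes from 0) against the summed CPM of 16 B cell markers (x axis, not from 0), 1 point per library, coloured by genotype. Ighd lies along 1 rising band through all 18 libraries, while the Ighm and Jchain points of the WT libraries with the most B cell marker RNA lie among the lowest of the series.

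Ighg3, the gamma gene nearest to Ighm, encodes IgG3, a class made largely in responses to polysaccharides that need no T cell help. It ran from 56.0 through 659 to 2242 CPM in Dp16_2xIFNRs, from 525 through 1009 to 1710.0 CPM in Dp16 and from 309.9 through 439 to 3911 CPM in WT. The highest and the lowest library of the series, WT replicate 2 and Dp16_2xIFNRs replicate 6, stood far outside the others. Ighg3 was not called, with a log2 fold change of -0.01 and a 95% interval of -1.74 to 1.72 in Dp16_2xIFNRs vs WT (edgeR adjusted p = 0.994) and 0.29 with an interval of -1.47 to 2.05 in Dp16 vs WT (adjusted p = 0.840). Without the 3 libraries in which a gene of the 10 stood apart, an omission chosen after seeing the data, it was 1.60 (adjusted p = 0.0327) and 1.47 (adjusted p = 0.0285) in these comparisons. That omission takes away the highest WT library and the lowest Dp16_2xIFNRs library, so the values without them are a description and no separate support.

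Ighg1 encodes IgG1, the class favoured by interleukin 4. It ran from 135 through 467 to 3147 CPM in Dp16_2xIFNRs, from 357 through 377 to 579 CPM in Dp16 and from 91.6 through 193 to 348 CPM in WT. All 6 Dp16 libraries lay above all WT libraries, while Dp16_2xIFNRs overlapped with both. The log2 fold change was 2.05 ± 0.62 in Dp16_2xIFNRs vs WT (edgeR adjusted p = 0.0199), and it was 1.24 (adjusted p = 0.0511) without Dp16_2xIFNRs replicate 6. The call was also lost in the fit of the 12 libraries of both genotypes (1.95, edgeR adjusted p = 0.0719) and without 4 libraries high in Gm42418, described below for Ighg2b (2.06, adjusted p = 0.0900). In Dp16 vs WT it was 1.2 ± 0.59 (adjusted p = 0.149), and it was 1.18 (adjusted p = 0.0495) once Dp16_2xIFNRs replicate 6 was left out of the common fit.

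Ighg2b encodes IgG2b and was called in both comparisons with WT. It ran from 897 through 2880.45 to 3493 CPM in Dp16_2xIFNRs, from 2017 through 2228 to 2451 CPM in Dp16 and from 573 through 1211 to 1915 CPM in WT. The 6 Dp16 libraries lay close together, with the highest 1.22 times the lowest, and all above WT, while in Dp16_2xIFNRs 5 libraries lay above all WT libraries and replicate 1 among them. The log2 fold change was 1.23 ± 0.34 in Dp16_2xIFNRs vs WT (edgeR adjusted p = 0.0127) and 0.98 ± 0.34 in Dp16 vs WT (adjusted p = 0.0416). In Dp16_2xIFNRs vs WT the call held without any 1 library, with a log2 fold change of 1.41 (edgeR adjusted p = 0.00184) without replicate 1 of Dp16_2xIFNRs, and was lost without the 4 libraries in which Gm42418, a gene model over ribosomal RNA sequence, took over 4% of counts (1.02, adjusted p = 0.104). In Dp16 vs WT the call was lost in 13 of 18 fits that left out 1 library, with adjusted p of 0.0505 to 0.0926. These were each of WT replicates 1, 4 and 5, each of the 6 Dp16 libraries and Dp16_2xIFNRs replicates 2, 3, 4 and 6, and the log2 fold change over these fits was 0.82 to 1.03. The call in Dp16 vs WT was also lost with upper quartile scaling (0.92, edgeR adjusted p = 0.0539) and without a filter on low counts (0.95, adjusted p = 0.0797). Without the 4 libraries high in Gm42418 it was lost too (0.88, edgeR adjusted p = 0.1835).

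Ighg2c encodes IgG2c, the class that C57BL/6 mice make in place of IgG2a and that interferon gamma favours. It ran from 748 through 2269.6 to 3226 CPM in Dp16_2xIFNRs, from 1021 through 1845 to 2989 CPM in Dp16 and from 281 through 865 to 2406 CPM in WT. Each genotype overlapped with the others, and WT replicate 2 was the WT library that reached into their upper range. Ighg2c was not called, with a log2 fold change of 1.12 and a 95% interval of 0.07 to 2.17 in Dp16_2xIFNRs vs WT (edgeR adjusted p = 0.0991) and 0.96 with an interval of -0.11 to 2.03 in Dp16 vs WT (adjusted p = 0.173). Without WT replicate 2 it was 1.58 (adjusted p = 0.0162) and 1.37 (adjusted p = 0.0329). With all libraries, Ighg2c was called in Dp16_2xIFNRs vs WT by DESeq2 (1.11, adjusted p = 0.0302), by limma voom with quality weights (1.67, adjusted p = 0.0145), with the replicate block (1.29, adjusted p = 0.0431) and with the description code as a block (1.39, adjusted p = 0.0357). The description code is a number in the library descriptions that some libraries of different genotypes share.

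Ighe encodes IgE, the class that arms mast cells and basophils, and was the rarest of the 10. It ran from 0.587 through 1.29 to 41.9 CPM in Dp16_2xIFNRs, from 0.802 through 1.69 to 4.63 CPM in Dp16 and from 0.207 through 1.19 to 2.06 CPM in WT. Dp16_2xIFNRs replicate 6 alone set the high value, and the other 5 libraries of that genotype lay within the WT range. Ighe was not called, with a log2 fold change of 2.47 and a 95% interval of 0.18 to 4.76 in Dp16_2xIFNRs vs WT (edgeR adjusted p = 0.0967) and 1.29 with an interval of -0.90 to 3.48 in Dp16 vs WT (adjusted p = 0.393). Without Dp16_2xIFNRs replicate 6 the log2 fold change of Ighe in Dp16_2xIFNRs vs WT was 0.25 (edgeR adjusted p = 0.790).

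Igha encodes IgA, the class of mucosal secretions. It ran from 2989 through 5435 to 7182 CPM in Dp16_2xIFNRs, from 2603 through 4386 to 6707 CPM in Dp16 and from 1226 through 3156 to 4366 CPM in WT. All genotypes overlapped, and 5 of 6 Dp16_2xIFNRs libraries lay above the highest WT library. The log2 fold change was 0.98 ± 0.32 in Dp16_2xIFNRs vs WT (edgeR adjusted p = 0.0325) and 0.68 ± 0.32 in Dp16 vs WT (adjusted p = 0.138). The call in Dp16_2xIFNRs vs WT was lost in 5 of 18 fits that left out 1 library, namely WT replicate 1, WT replicate 3 and Dp16_2xIFNRs replicates 1, 3 and 6, with adjusted p of 0.0541 to 0.0719. That call was also lost without a filter on low counts (0.95, edgeR adjusted p = 0.0645) and with the replicate block (0.94, adjusted p = 0.109). The same held without the libraries that stood apart, an omission chosen after seeing the data (0.91, adjusted p = 0.133).

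Igkc encodes the constant part of the kappa light chain, which most mouse antibodies carry. It ran from 11928 through 18874 to 22559.6 CPM in Dp16_2xIFNRs, from 12360.4 through 16428 to 19522 CPM in Dp16 and from 7526 through 10590.2 to 18741 CPM in WT. The genotypes overlapped, since WT replicates 2 and 6 reached the upper range. The log2 fold change was 0.72 ± 0.23 in Dp16_2xIFNRs vs WT (edgeR adjusted p = 0.0260) and 0.53 ± 0.23 in Dp16 vs WT (adjusted p = 0.102). In Dp16_2xIFNRs vs WT the call was lost without any 1 of WT replicates 1, 4 and 5 and Dp16_2xIFNRs replicates 3, 4 and 5, with adjusted p of 0.0513 to 0.0616. That call was also lost without a filter on low counts (0.69, edgeR adjusted p = 0.0610) and in the fit of 12 libraries (0.73, adjusted p = 0.0588). The same held without the 4 libraries high in Gm42418 (0.63, edgeR adjusted p = 0.145). In Dp16 vs WT, Igkc was called without WT replicate 2 (0.66, adjusted p = 0.0372) or WT replicate 6 (0.71, adjusted p = 0.0265).

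The lambda light chain constant genes, the alternative to kappa, gave no call in the same direction. Of 4 tested, none was called in Dp16_2xIFNRs vs WT. In Dp16 vs WT only Iglc3 was called, and it was lower, with a log2 fold change of -0.39 ± 0.12 (edgeR adjusted p = 0.0182). Iglc1 was not called, with 0.49 ± 0.24 in Dp16_2xIFNRs vs WT (adjusted p = 0.128) and 0.22 ± 0.23 in Dp16 vs WT (adjusted p = 0.539). Kappa made up 95.98% ± 0.6 of kappa plus lambda constant counts in Dp16_2xIFNRs, 95.8% ± 1.1 in Dp16 and 93.4% ± 2.8 in WT (SD, n = 6 each). The libraries overlapped, with the lowest kappa shares in WT replicates 1 and 4 at 89.1% and 91.1%.

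Jchain ran from 1730.0 through 2158 to 2715 CPM in Dp16_2xIFNRs, from 1471 through 1907 to 2207 CPM in Dp16 and from 1016 through 1243 to 2136 CPM in WT. The genotypes overlapped through WT replicates 2 and 6, while the other 4 WT libraries lay below all Dp16_2xIFNRs and Dp16 libraries. The log2 fold change was 0.73 ± 0.18 in Dp16_2xIFNRs vs WT (edgeR adjusted p = 0.00506), and the call held in every alternative run and without any 1 library. In Dp16 vs WT it was 0.49 ± 0.18 (adjusted p = 0.04996), a value next to the threshold, and the call was lost in 14 of 18 fits that left out 1 library, with adjusted p of 0.0512 to 0.113 and log2 fold changes of 0.39 to 0.52. It held in the fits without WT replicate 2, WT replicate 6, Dp16 replicate 5 or Dp16_2xIFNRs replicate 1. The call was also lost in 8 other alternatives, with adjusted p of 0.0519 to 0.294 and log2 fold changes of 0.38 to 0.50. These were RLE scaling, upper quartile scaling, scaling without immunoglobulin genes, no filter on low counts, limma on log2 RPKM with either pseudocount, the fit of 12 libraries and the omission of the 4 libraries high in Gm42418.

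Jchain counts amounted to 8.89% ± 0.95 of the summed heavy chain counts in Dp16_2xIFNRs, 8.47% ± 0.66 in Dp16 and 7.46% ± 0.96 in WT (SD, n = 6 each). J chain RNA thus varied less against the summed heavy chains than it did in CPM. This ratio was not tested.

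The balance of the classes was then taken as the share of each gene in the summed counts of the 8 heavy chain genes, a measure in which library depth and scaling cancel. A share can move because another class moves, and longer genes take more counts. Differences in mean share were tested with a two-sided exact permutation test, 24 tests in all, with p adjusted over the 24. The smallest p that this test can give is 0.00216.

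**Figure D4:**
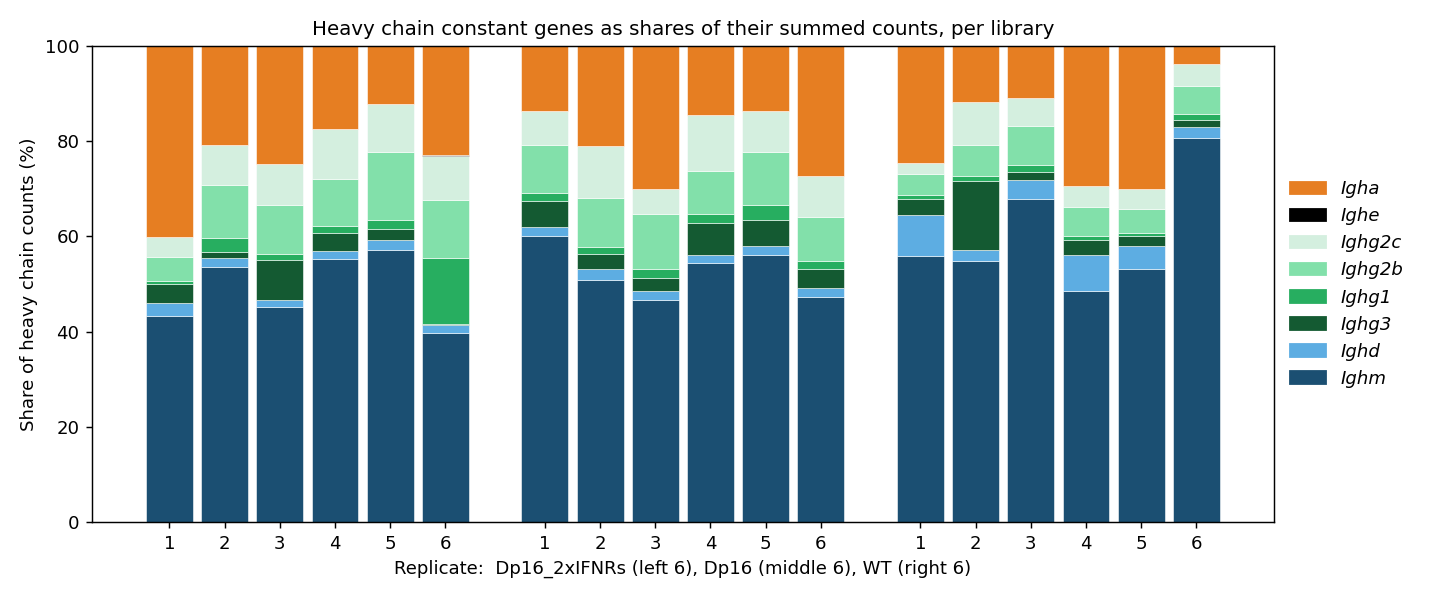
Share of each heavy chain gene in the summed counts of the 8 genes (y axis, percent, stacked from 0) in each library, with Dp16_2xIFNRs on the left, Dp16 in the middle and WT on the right, and the colours in the order of the genes along the chromosome from bottom to top. The large Ighm share of WT replicate 6, the Ighg3 share of WT replicate 2, the Ighg1 share of Dp16_2xIFNRs replicate 6 and the Igha share of Dp16_2xIFNRs replicate 1 stand out.

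Ighm held the largest mean share in every genotype, with 49.1% ± 7.2 in Dp16_2xIFNRs, 52.6% ± 5.2 in Dp16 and 60.1% ± 11.9 in WT (SD, n = 6 each). The single WT libraries ran from 48.5% to 80.7% and covered nearly the whole range of Dp16. The difference was -11.1 percentage points in Dp16_2xIFNRs vs WT (exact permutation p = 0.0714, adjusted p = 0.190) and -7.56 points in Dp16 vs WT (exact permutation p = 0.199, adjusted p = 0.478).

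The Ighd share was 1.85% ± 0.41 in Dp16_2xIFNRs, 1.92% ± 0.17 in Dp16 and 4.93% ± 2.67 in WT. In WT the libraries ran from 2.22% to 8.61%, and the lowest of them overlapped with the highest of the other genotypes (2.59% in Dp16_2xIFNRs and 2.25% in Dp16). The difference was -3.08 points in Dp16_2xIFNRs vs WT (exact permutation p = 0.00866, adjusted p = 0.0519) and -3.0 points in Dp16 vs WT (exact permutation p = 0.00433, adjusted p = 0.0346). When the permutation was kept within each sex the adjusted p in Dp16 vs WT was 0.060. Without the 4 libraries high in Gm42418 the difference was -2.53 points (exact permutation p = 0.0556, adjusted p = 0.190). The smallest p of that test of 4 against 5 libraries is 0.00794, which alone among 24 would be adjusted to 0.190, so that it can hardly reach the threshold.

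Among the gamma genes, the Ighg2b share showed the clearest separation. It was 10.5% ± 3.1 in Dp16_2xIFNRs, 10.2% ± 0.9 in Dp16 and 6.04% ± 1.28 in WT. All 6 Dp16 shares, from 9.13% to 11.5%, lay above the highest WT share of 8.17%. The difference was 4.42 points in Dp16_2xIFNRs vs WT (exact permutation p = 0.0108, adjusted p = 0.0519) and 4.18 points in Dp16 vs WT (exact permutation p = 0.00216, the smallest possible, adjusted p = 0.0346).

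The Ighg1 share was 3.73% ± 5.04 in Dp16_2xIFNRs, 1.96% ± 0.57 in Dp16 and 0.978% ± 0.315 in WT. The large SD of Dp16_2xIFNRs comes from replicate 6, in which Ighg1 took 13.9% of heavy chain counts (95% Wilson interval 13.8 to 14.0), while the median of that genotype was 1.71%. The difference was 2.75 points in Dp16_2xIFNRs vs WT (exact permutation p = 0.0368, adjusted p = 0.123) and 0.99 points in Dp16 vs WT (exact permutation p = 0.00433, adjusted p = 0.0346). Without Dp16_2xIFNRs replicate 6 the difference in Dp16_2xIFNRs vs WT was 0.718 points (exact permutation, adjusted p = 0.175).

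The 3 share calls in Dp16 vs WT, for Ighd, Ighg2b and Ighg1, crossed the threshold with the choice of libraries and kept their direction. Each was lost in 9 of the 12 tests that left out 1 Dp16 or WT library, namely each of WT replicates 1, 4 and 5 and each of the 6 Dp16 libraries. Over those tests the exact permutation test gave adjusted p of 0.0519 to 0.0935 for Ighd and 0.0519 to 0.0649 for Ighg2b and Ighg1. With 1 library left out, the differences ran from -3.55 to -2.27 points for Ighd, from 3.88 to 4.61 points for Ighg2b and from 0.767 to 1.09 points for Ighg1. In such a test a single share at the smallest possible p would be adjusted to 0.0519, so that a call needs more than 1 share at or near it. With permutation within sex, where that value is 0.12, the adjusted p was 0.060 for both Ighg2b and Ighg1. Without the 4 libraries high in Gm42418 the differences were 3.89 points for Ighg2b and 1.07 points for Ighg1 (exact permutation p = 0.0159 and adjusted p = 0.190 for each), with the limit of the design given for Ighd. Without Dp16_2xIFNRs replicate 1 the Ighg2b share was called in Dp16_2xIFNRs vs WT as well, with a difference of 5.51 points (exact permutation, adjusted p = 0.0208).

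The Ighg2c share was 8.49% ± 2.29 in Dp16_2xIFNRs, 8.68% ± 2.31 in Dp16 and 5.00% ± 2.27 in WT, with adjusted p of 0.123 in Dp16_2xIFNRs vs WT and 0.104 in Dp16 vs WT in the exact permutation test. Shares of Ighg3, Ighe and Igha had adjusted p of 0.505 or above in all 3 comparisons in that test. Igha took 23.0% ± 9.5 in Dp16_2xIFNRs, 20.04% ± 7.3 in Dp16 and 18.5% ± 11.0 in WT, and its WT libraries alone ran from 3.83% to 30.1%. None of the 8 shares had an adjusted p below 0.651 in Dp16_2xIFNRs vs Dp16 in the exact permutation test.

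Summed over the 4 gamma genes, the share was 26.0% ± 7.1 in Dp16_2xIFNRs, 25.5% ± 2.9 in Dp16 and 16.5% ± 7.5 in WT (SD, n = 6 each). The Dp16 libraries ran from 21.6% to 29.3%, between WT replicate 2 at 31.1% and the other 5 WT libraries, which lay at or below 17.1%. The unswitched genes Ighm and Ighd together took 50.9% ± 7.2 in Dp16_2xIFNRs, 54.5% ± 5.2 in Dp16 and 65.1% ± 10.6 in WT. These sums were not tested.

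The spread between spleens of 1 genotype was itself large and differed by gene. In Dp16_2xIFNRs the highest library was 71.4 times the lowest for Ighe, 40.0 times for Ighg3 and 23.2 times for Ighg1, against 1.40 times for Ighd and 1.57 times for Jchain. In Dp16 these ratios were 5.78 for Ighe, 3.25 for Ighg3, 1.62 for Ighg1, 1.58 for Ighd and 1.5 for Jchain. In WT they were 9.96 for Ighe, 12.6 for Ighg3, 3.80 for Ighg1, 1.80 for Ighd and 2.1 for Jchain. Ighe, Ighg3 and Ighg1 were thus the most uneven, and Ighd and Jchain the most even, of the 10 in Dp16_2xIFNRs.

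**Figure D5:**
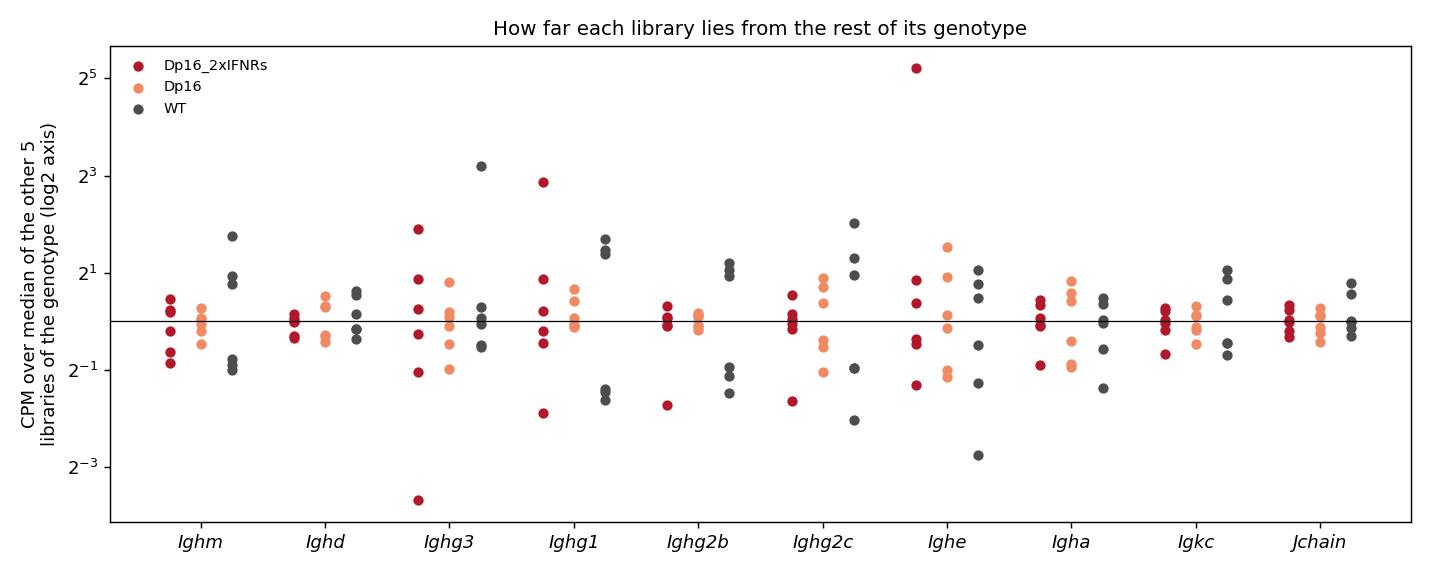
CPM of each library divided by the median of the other 5 libraries of its genotype (y axis, log2 scale) for the 10 genes, with Dp16_2xIFNRs, Dp16 and WT from left to right within each gene. Points lie close to 1 for Ighd and Jchain and spread widely for Ighg3, Ighg1 and Ighe.

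In WT, several of the genes fell into 2 sets of libraries rather than around 1 value. WT replicates 1, 4 and 5 held 91.6 to 107 CPM of Ighg1, and WT replicates 2, 3 and 6 held 279 to 348 CPM. Ighg2b showed the same 2 sets, with 573 to 833 CPM in replicates 1, 4 and 5 and 1590 to 1915 CPM in replicates 2, 3 and 6. These sets were seen in the data and were not compared by a test.

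The variable segments gave another view of the libraries, among them those that stood apart. In each library the leading segment among 113 heavy chain variable genes took 5.94% to 21.6% of their counts. In Dp16_2xIFNRs replicate 6 this was Ighv14-4 with 21.6% (95% Wilson interval 21.4 to 21.8), a segment that took 0.339% to 1.99% in the other 17 libraries. In WT replicate 6, the library with the most Ighm, Ighv1-9 took 19.9% (19.7 to 20.1), against 1.64% to 8.96% in the other 17 libraries. WT replicate 2 and Dp16_2xIFNRs replicate 1, which also stood apart, had no such leading segment. It took 10.6% (10.4 to 10.7) in WT replicate 2 and 5.94% (5.80 to 6.08) in Dp16_2xIFNRs replicate 1. Variable segments resemble each other closely, so that counts of single segments are uncertain.

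Genes of class switching and hypermutation were called in both directions, and more often higher. Of a list of 26 genes, 10 were higher and 2 lower in Dp16_2xIFNRs vs WT, with a median log2 fold change of 0.23. In Dp16 vs WT 11 were higher and 1 lower, with a median of 0.26. Over all genes, 17.3% were higher and 14.2% lower in Dp16_2xIFNRs vs WT, and 16.6% and 13.2% in Dp16 vs WT. Exo1, an exonuclease of mismatch repair, changed by 0.95 ± 0.14 in Dp16_2xIFNRs vs WT (edgeR adjusted p = 7.36e-05) and by 1.05 ± 0.14 in Dp16 vs WT (adjusted p = 3.57e-05). Xrcc6, which encodes the Ku70 subunit of end joining, changed by 0.56 ± 0.08 (adjusted p = 4.41e-05) and 0.51 ± 0.08 (adjusted p = 8.63e-05) in the same comparisons. Most genes of this list serve DNA repair in all dividing cells, and the erythroid and neutrophil markers given above were higher in the same libraries. Whether the levels of this list are related to B cells or to these other cells was not tested.

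Genes that fold, process and secrete antibody were called higher about as often as all genes. Of 16, 3 were higher and 1 lower in Dp16_2xIFNRs vs WT, with a median log2 fold change of 0.36, against 17.3% higher and 14.2% lower over all genes. In Dp16 vs WT 2 were higher and 1 lower, with a median of 0.24, against 16.6% and 13.2%. Ell2, an elongation factor that favours the secreted form of the heavy chain RNA in plasma cells, changed by 0.58 ± 0.15 in Dp16_2xIFNRs vs WT (edgeR adjusted p = 0.0058) and 0.53 ± 0.15 in Dp16 vs WT (adjusted p = 0.0115). Irf4, a transcription factor that both activated B cells and plasma cells need, changed by -0.44 ± 0.13 (adjusted p = 0.0117) and -0.52 ± 0.13 (adjusted p = 0.00405) in the same comparisons.

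Of 5 plasma cell surface markers, none was higher and 2 were lower in both comparisons with WT. Among all genes, 17.3% were higher and 14.2% lower in Dp16_2xIFNRs vs WT, and 16.6% and 13.2% in Dp16 vs WT. Tnfrsf13b, which encodes the receptor TACI, changed by -0.37 ± 0.08 in Dp16_2xIFNRs vs WT (edgeR adjusted p = 0.00172) and -0.48 ± 0.08 in Dp16 vs WT (adjusted p = 0.000237). Cd93 changed by -0.44 ± 0.09 (adjusted p = 0.000861) and -0.40 ± 0.09 (adjusted p = 0.00213). Both are also expressed outside plasma cells, Tnfrsf13b on marginal zone B cells and Cd93 on endothelium. Sdc1, the plasma cell marker CD138 named here after its values were seen, had 45.8 ± 7.7 CPM in Dp16_2xIFNRs, 38.6 ± 6.4 CPM in Dp16 and 38.4 ± 13.2 CPM in WT (SD, n = 6 each) and was not called. Its log2 fold change was 0.36 ± 0.19 in Dp16_2xIFNRs vs WT and 0.11 ± 0.20 in Dp16 vs WT. Tnfrsf17 and Slamf7, also named after their values were seen, were not called either. In the same comparisons Tnfrsf17 changed by 0.62 ± 0.32 and 0.24 ± 0.32, and Slamf7 by -0.13 ± 0.10 and -0.17 ± 0.10. The markers on this list thus went both ways.

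Receptors that bind the products of these genes moved both ways. Of 11 genes, 4 were higher and 1 lower in each comparison with WT. Among all genes, 17.3% were higher and 14.2% lower in Dp16_2xIFNRs vs WT, and 16.6% and 13.2% in Dp16 vs WT. The lower one of the 11 was Fcmr, the IgM Fc receptor of B cells. It changed by -0.92 ± 0.09 in Dp16_2xIFNRs vs WT (edgeR adjusted p = 1.4e-06) and by -0.89 ± 0.09 in Dp16 vs WT (adjusted p = 1.94e-06). Fcer1a, the chain of the high affinity receptor that binds IgE on mast cells and basophils, changed by 3.19 ± 0.47 (adjusted p = 6.25e-05) and 2.99 ± 0.46 (adjusted p = 9.49e-05).

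Among 16 tested genes for cytokines that direct switching and for their receptors, none was higher and 6 were lower in each comparison with WT. The shares of all genes were 17.3% higher and 14.2% lower in Dp16_2xIFNRs vs WT, and 16.6% and 13.2% in Dp16 vs WT. All of the genes of this list called lower encode receptors, and none of its tested genes for cytokines or other ligands was called. Of the 17 genes on the list, 3 had a library at 0 counts, and Il5 was not tested. Il4 and Il6, named here after their values were seen, had SE of 0.90 and 0.996 in Dp16_2xIFNRs vs WT. Only a large difference in these 2 genes could have been called. Il4ra, the receptor chain for interleukin 4, changed by -0.56 ± 0.07 in Dp16_2xIFNRs vs WT (edgeR adjusted p = 1.73e-05) and -0.56 ± 0.07 in Dp16 vs WT (adjusted p = 1.69e-05). Tnfrsf13c, the receptor for the B cell survival factor BAFF, changed by -0.62 ± 0.10 (adjusted p = 0.000161) and -0.66 ± 0.10 (adjusted p = 9.96e-05). None of the genes of these lists was called in Dp16_2xIFNRs vs Dp16.

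The difference between genotypes was compared between males and females by an interaction term, and none of the 10 genes was called in any of the 3 comparisons (edgeR, all adjusted p = 1). Over all genes, none was called either. For Ighd, the log2 fold change in Dp16_2xIFNRs vs WT was -0.83 in males and -0.67 in females, and in Dp16 vs WT it was -0.83 in males and -0.85 in females. The lowest unadjusted interaction p among the 10 was 0.0113, for Ighe in Dp16_2xIFNRs vs Dp16, with -1.53 in males and 3.31 in females, the sex of Dp16_2xIFNRs replicate 6.

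Genes whose levels ran most like those of the 10 were ranked by Pearson's r over the 18 libraries after genotype and sex effects were taken out, among 10022 genes. The libraries share their depth and cell makeup in these values, and no p is given. For Ighd they were Fcer2a (r = 0.927), Cd37 (0.890) and Ralgps2 (0.851), all 3 of which are on the B cell marker list used above. For Ighm they were Mybl1 (0.958), Tigit (0.957) and Cpxm1 (0.934), and for Jchain they were Pon3 (0.927), Fkbp11 (0.910) and Hsp90b1 (0.899), of which Fkbp11 and Hsp90b1 encode protein folding factors of the endoplasmic reticulum. Igkc ran most like Pon3 (0.915), Cep55 (0.904) and H13 (0.904).

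The gamma genes differed from each other in this respect. Ighg2b ran most like Mif (0.893), Phgdh (0.885) and Cxcr3 (0.884), and Ighg2c most like Txndc5 (0.906), Prdx4 (0.902) and Pon3 (0.901). For Ighg1 the leading genes were Gskip (0.834), Tsta3 (0.797) and Slpi (0.790), and for Ighe they were Plrg1 (0.892), Gskip (0.838) and Dph3 (0.800). Ighg1 and Ighe are the 2 genes in which Dp16_2xIFNRs replicate 6 stood far above the rest, and these r values include that library. The likeness was weakest for Ighg3, with C6 (0.756), Clpb (0.748) and Uso1 (0.714), followed by Igha, with Rtel1 (0.823), Prpf6 (0.754) and Zfp628 (0.739).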

How the data were processed

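Counts and RPKM were used. The deposited counts are whole-number reads per gene made by the authors, and the deposited RPKM values are those counts scaled by the authors for gene length and library total, which was checked on the 10 genes. Tools in the submitters' processing notes are HISAT2 2.1.0, HTSeq 0.6.1, SAMtools 1.5, bcl2fastq and FastQC 0.11.5, and the build is GRCm38. Per the labels' protocols, libraries were strand-specific, poly(A) selected and read as 150-base pairs. Whether counting used strand is not given in the sources used here. Reads that fit several genes equally well may be missing from the gamma genes, and how they were treated is not given either.

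The 10 genes and the gene lists were chosen with earlier results of these data known. CPM here is the count divided by the library total. The 18 libraries were fitted together with the quasi-likelihood method of edgeR 4.0.16 (R 4.3.3, robust, filterByExpr by genotype, TMM) with genotype and sex as terms. Benjamini-Hochberg adjustment ran over 18634 genes, and a gene was called below 0.05. Errors after ± are SE for log2 fold changes and SD for levels. Shares were tested by exact permutation (scipy 1.17.1). All 10 genes are named, and of each of 7 lists the 2 members with the smallest p in Dp16 vs WT; lists of other cells are given by counts and sums. Likeness used log2 CPM with a prior count of 2 and genes with a mean log2 CPM above 3. The fit and the permutation test were tested on simulated data.

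Of 45 pairs of libraries within a genotype, none was a copy of the other, as the chi-square divided by its degrees of freedom was 35.5 or more in each. Each library is taken as 1 animal, which the labels do not state in words. Xist and Y-linked counts matched the sex label in 18 of 18 libraries. Alternatives were other scalings, no filter on low counts, DESeq2 1.42.0, limma 3.58.1 on counts (voom) and on log2 RPKM with 0.1 or 1 added, other terms or blocks, fits of 12 libraries, and omission of libraries.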

Additional observations from a re-analysis of the deposited data

Results flagged for a closer look

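Over 54 groups of 6 libraries (10 levels and 8 shares in 3 genotypes), 9 held a library far from the other 5 by Dixon's ratio. Chance alone marks about 1 group in 20 where values are normal and groups independent. Several of these levels are strongly skewed, and the level and the share of a gene come from the same counts. The 9 are thus a description and cannot be set against that rate. In Dp16_2xIFNRs replicate 6, a female, Ighg1 stood at 3147 CPM and 13.9% of heavy chain counts, and Ighe at 41.9 CPM and 0.185% of heavy chain counts (95% Wilson interval 0.177 to 0.194). In Dp16_2xIFNRs replicate 1, a male, Ighg2b was low at 897 CPM and the Ighg2c share low at 4.18% (4.13 to 4.22). In Dp16 replicate 5 the Ighg1 share was high at 3.06% (3.02 to 3.10). In WT replicate 2, a female, Ighg3 stood at 3911 CPM and 14.6% of heavy chain counts (14.5 to 14.6). What sets these spleens apart was not tested.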

How the results depend on the processing

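The count of called genes in Dp16 vs WT (3) became 1 with upper quartile scaling, without a filter on low counts or without the 4 libraries in which Gm42418 took over 4% (WT replicate 4, Dp16 replicates 2 and 3, Dp16_2xIFNRs replicate 5), 6 with limma voom and quality weights, and 7 without the libraries in which a gene of the 10 stood apart (WT replicate 2, Dp16_2xIFNRs replicates 1 and 6), an omission chosen after seeing the data. Without 1 library it ran from 1 to 5. In Dp16_2xIFNRs vs WT the count (6) was 3 without the Gm42418 libraries, and the other alternatives gave 4 to 7. The cause of these changes was not tested. In Dp16_2xIFNRs vs Dp16 it was 0 throughout. With the sample number of the titles as a replicate block the count was 4 in Dp16 vs WT, 6 in Dp16_2xIFNRs vs WT and 0 in Dp16_2xIFNRs vs Dp16. Igkc in Dp16 vs WT and Ighg2c in Dp16_2xIFNRs vs WT were gained and Igha in Dp16_2xIFNRs vs WT lost. Same-numbered libraries had a mean correlation of 0.019 over 18 pairs, so the number is not known to pair animals.

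The sign of differences near 0 was unstable. Ighm in Dp16 vs WT was 0.23 with limma voom and quality weights, 0.052 on log2 RPKM with either pseudocount, 0.11 with the replicate block, 0.20 with the description code as a block, 0.0023 in the fit of 12 libraries and 0.092 without the libraries that stood apart. Ighg3 in Dp16_2xIFNRs vs WT was 0.49, 0.20, 0.11, 0.11 and 1.60 with voom and quality weights, the replicate block, the code block, 12 libraries and without the libraries that stood apart. Ighm in Dp16_2xIFNRs vs WT was -0.066 without the Gm42418 libraries. Without the libraries that stood apart, Dp16_2xIFNRs vs Dp16 gave 0.13 for Ighg3 and -0.58 for Ighe. With 1 library left out, Ighm ran from -0.15 to 0.35 in Dp16 vs WT and from -0.046 to 0.45 in Dp16_2xIFNRs vs WT, and Ighg3 from -0.76 to 1.24 in Dp16_2xIFNRs vs WT. In Dp16_2xIFNRs vs Dp16 the ranges were -0.017 to 0.37 for Ighg2c, -0.87 to 0.014 for Ighg3 and -0.81 to 1.71 for Ighe. Of 957 alternative fold changes of the 10 genes, 34 had the opposite sign and 1 of these, Ighg3 without the libraries that stood apart, was called.

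For shares, the Ighd difference in Dp16 vs WT was -3.0 points with permutation within sex, -2.53 without the Gm42418 libraries and -0.99 as a log2 ratio to Ighm, none past the threshold, and ran from -3.55 to -2.27 with 1 library left out; in Dp16_2xIFNRs vs WT it ran from -3.62 to -2.34. In Dp16_2xIFNRs vs Dp16 the log2 ratio to Ighm was 0.027 for Ighd and 0.060 for Ighg2c, and Ighg2b was -0.22 points without the Gm42418 libraries. Without the libraries that stood apart, Dp16_2xIFNRs vs Dp16 gave 0.26 points for Ighm, -0.034 for Ighg1, 0.71 for Ighg2c, -0.0042 for Ighe and -1.23 for Igha, and Dp16_2xIFNRs vs WT gave 1.5 for Ighg3 and -0.99 for Igha. With 1 library left out, Dp16_2xIFNRs vs Dp16 ran from -0.22 to 0.012 for Ighd, -0.27 to 2.36 for Ighg1, -0.53 to 1.32 for Ighg2b, -0.85 to 0.67 for Ighg2c, -0.0046 to 0.032 for Ighe and -0.40 to 5.17 for Igha. Dp16_2xIFNRs vs WT ran from -2.12 to 0.90 for Ighg3 and -0.00063 to 0.036 for Ighe, and Dp16 vs WT from -0.43 to 2.17 for Ighg3 and -1.37 to 3.89 for Igha. DESeq2 gave no adjusted p for Ighe. With 6 spleens a genotype and spreads of this size, the intervals of Ighg3 and Ighe are wide. Ighe, at 8 to 1773 counts a library, is the gene of the 10 with the fewest counts and the largest counting error.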
